A study of Homo sapiens with 4 samples.

Results

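The respiratory chain and the ATP synthase were described in a K562 line after exposure to SF1-8. K562 is an established human erythroleukemia line. Control and treated cells alike overexpressed U2AF1 S34F, a mutant form of a splicing factor. SF1-8 is the small molecule that the study developed against the UHM domain of U2AF1, and DMSO is its solvent. Libraries of rRNA-depleted total RNA were made from 2 samples given DMSO and 2 given SF1-8 (30 µM for 48 h). How many clones the overexpressing line derives from, and whether the 2 samples of a group were separate cultures, is not stated in the labels, so p-values measure only the spread between these libraries. These 4 libraries include no matching line that overexpresses wild-type U2AF1. An effect that depends on the mutant therefore cannot be told apart from one that does not.

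Members were chosen by symbol alone. They are the protein-coding genes whose symbol begins with NDUF, UQCR, COX4 to COX8 or ATP5, together with SDHA to SDHD, CYC1 and the protein genes of mitochondrial DNA. The rule found 112 of the 50229 symbols in the table, 99 encoded in the nucleus and 13 in the mitochondrial genome. Of the nuclear members, 40 belong to complex I, 8 are NDUFAF assembly factors of complex I, 4 belong to complex II, 10 to complex III, 17 to complex IV and 20 to complex V. NDUFA4 is counted with complex I by its name, although its protein is now usually placed in complex IV. The KEGG annotation in the table assigns 87 of the 99 nuclear members and 13 of the 13 mitochondrial members to oxidative phosphorylation, which the rule did not use.

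The respiratory chain sits in the inner mitochondrial membrane. Complexes I and II pass electrons from NADH and succinate to coenzyme Q, complex III passes them to cytochrome c, and complex IV passes them to oxygen. Complexes I, III and IV pump protons, and complex V, the ATP synthase, uses the proton gradient to make ATP. Every complex except complex II combines subunits made from nuclear genes with subunits made inside the mitochondrion, which is why nuclear and mitochondrial transcripts are often read side by side. Many nuclear genes of the chain are known targets of the transcription factors NRF1 and GABP, and some of YY1.

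Promoter sequence is a feature that the rule did not use. Of the 99 nuclear members, 81 were matched to a promoter of RefSeq on GRCh38.p14, from 250 bases before to 50 bases after the start of the gene. The core of the NRF1 site, GCGCATGC, was searched on both strands and was held by 15 of the 81, which is 18.5% beside 3.27% of all 27305 promoters. The ETS site bound by GABP, CCGGAAG, was held by 21, which is 25.9% beside 10.7%. The YY1 site, AAGATGGC, was held by 11, which is 13.6% beside 3.03%. At least 1 of the 3 was held by 44.4% of the member promoters and by 15.6% of all, and 45 of the 81 held none. These are letter matches with no test, and they do not show binding. The set of all promoters was not matched to the members by expression or gene type. ATP5PF, a subunit of the peripheral stalk of the ATP synthase, and SDHB, the iron-sulfur subunit of complex II, were the 2 promoters that hold all 3. Their matches are shown with the bases around them because they give the clearest view of these letters in a member. ATP5PB is added because it had the smallest unadjusted p among the members that were lower with SF1-8. The promoters of COX7A2L, COX7B and NDUFV1, searched in the same way, held none of the 3. A link between a match and a change in level was not tested. The capitals mark the match, which reads as its reverse complement where it lies on the other strand.
ATP5PF, NRF1 site, chr21:25735151-25735190, minus strand: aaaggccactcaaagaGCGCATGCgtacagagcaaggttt
ATP5PF, YY1 site, chr21:25735088-25735127, minus strand: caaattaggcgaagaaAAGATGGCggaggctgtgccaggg
ATP5PF, GABP site, chr21:25735062-25735100, minus strand: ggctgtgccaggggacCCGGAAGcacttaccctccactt
SDHB, NRF1 site, chr1:17054209-17054248, minus strand: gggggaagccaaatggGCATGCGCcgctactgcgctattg
SDHB, GABP site, chr1:17054138-17054176, minus strand: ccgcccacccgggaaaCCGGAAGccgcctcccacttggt
SDHB, YY1 site, chr1:17053999-17054038, minus strand: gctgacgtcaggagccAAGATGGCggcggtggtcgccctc
ATP5PB, YY1 site, chr1:111449446-111449485, plus strand: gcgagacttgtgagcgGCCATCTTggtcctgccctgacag

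Total estimated counts per library ranged from 45522905 in DMSO 1 to 67554610 in SF1-8 1. Member entries took 0.938% to 0.997% of the counts and ribosomal RNA entries 10.9% to 14.0%. The erythroid markers of K562 cells, among them GATA1 at 75.9 to 79.1 FPKM, were present in every library, and their list of 10 genes summed to between 260.3 and 285.7 FPKM. Of the 10, 5 were lower in both SF1-8 libraries than in both DMSO libraries, and HBG1, HBG2 and HBE1 among them share an entry. FPKM is the count scaled for transcript length and library depth. A list of 7 fibroblast and stroma genes moved with the groups. All 7 were lower in both SF1-8 libraries than in both DMSO libraries, as were 20.0% of all entries tested. Their FPKM summed to 10.1 and 4.94 with DMSO and to 2.38 and 0.558 with SF1-8. Each of the 7 had an adjusted p of 0.970 in edgeR. The unadjusted p was 0.00736 for LUM, 0.00927 for COL1A2, 0.0231 for DCN, 0.0251 for COL3A1 and 0.0464 for PDGFRB. It was 0.0634 for COL1A1 and 0.139 for POSTN. At an unadjusted p under 0.05, 2.54% of all entries were called lower. DCN, LUM, PDGFRB and POSTN were at or below 0.292 FPKM in every library. COL1A1, COL1A2, COL3A1 and PDGFRB were above 0 in every library. LUM was listed at 0 in both SF1-8 libraries, and DCN and POSTN in SF1-8 2. COL1A1 had 5.39 and 2.60 FPKM with DMSO and 1.21 and 0.0982 with SF1-8. The part of that list in the results on the members was not tested.

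The 13 mitochondrially encoded members gave no measurement. MT-ND1 to MT-ND6 with MT-ND4L, which encode the core membrane subunits of complex I, MT-CYB of complex III, MT-CO1 to MT-CO3, which form the catalytic core of complex IV, and MT-ATP6 and MT-ATP8 of complex V were all listed at 0 in all 4 libraries. So were the other 24 entries of chromosome MT, which are 22 tRNA and 2 rRNA genes. These are among the most abundant RNAs of most human cells, so a value of 0 is not read as absence. All 37 entries carry Ensembl identifiers and none carries an identifier of the assembly. Of the 29559 entries with an Ensembl identifier elsewhere, 8076 had a count above 0, and chromosome X, which the table also writes without a prefix, had counts on 1430 of its 2603 entries. Copies of mitochondrial protein genes in the nuclear genome were looked at after the values had been seen. Of 387 entries that name only such a copy, 300 were at 0 in all libraries, and the largest mean count among them was 85.8. Why the entries stand at 0 was not tested. A comparison of nuclear with mitochondrial members, and of their ratio between SF1-8 and DMSO, could therefore not be made.

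The nuclear members as a whole stayed close to their control levels. Their 97 entries summed to 2590.7 and 2423.9 FPKM with DMSO and to 2437.5 and 2587.8 with SF1-8, and the groups overlapped (exact permutation test over the 4 libraries, two-sided, p = 1, where the smallest possible p is 0.333). After the filter on low counts, 94 entries were tested. COX4I2 and COX6A2 were at 0 in all libraries, COX8C was too low to test, and NDUFC2 with NDUFC2-KCTD14 and ATP5MF with ATP5MF-PTCD1 share an entry each. For 31 of the 99 nuclear members the entry also names another gene, so its value may not be the member's alone. Among the 65 tested members with an entry of their own, 0 passed the adjusted threshold, 3 passed before adjustment, and the median log2 fold change was 0.04. Not 1 of the 94 passed at an adjusted p of 0.05 (edgeR quasi-likelihood, Benjamini-Hochberg over all 26167 entries), and the smallest adjusted p was 0.882. Over all entries 11 passed, which is 0.0420%. Before adjustment, 2 members were higher and 1 lower at p under 0.05, where 1.78% of all entries were called higher and 2.54% lower. DESeq2 called 1 member, COX7A2L, at an adjusted p of 0.05, where it called 0.623% of all entries. In bulk RNA, fewer cells and less RNA per cell cannot be told apart.

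Differences between SF1-8 and DMSO were small and their intervals narrow. The log2 fold change was between -0.2 and 0.2 for 80 of the 94 members, or 85.1%, against 48.0% of all entries tested, and the members were also more abundant, with a median of 14.5 FPKM against 1.13. Their median standard error was 0.0964, against 0.331 over all entries. For 84 of the 94 the 95% confidence interval lay within 1 log2 unit on either side of 0, so a change of 2-fold or more was outside the interval. The median log2 fold change was 0.03, against -0.01 for all entries, and 63 members were above 0 and 31 below, or 67.0% above against 48.4% of all entries. Total-count scaling took the member median to -0.01 and that of all entries to -0.06, which left the difference between them at 0.04, while 42.6% of members and 40.3% of all entries were then above 0. The difference was -0.02 after quantile normalization, and it ran from 0.0050 without DMSO 1 to 0.09 without SF1-8 1. In FPKM, the 2 SF1-8 libraries were above the 2 controls for 13 members, where 14.2% of all entries did so, and below both for 14, where 20.0% did.

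**Figure D1:**
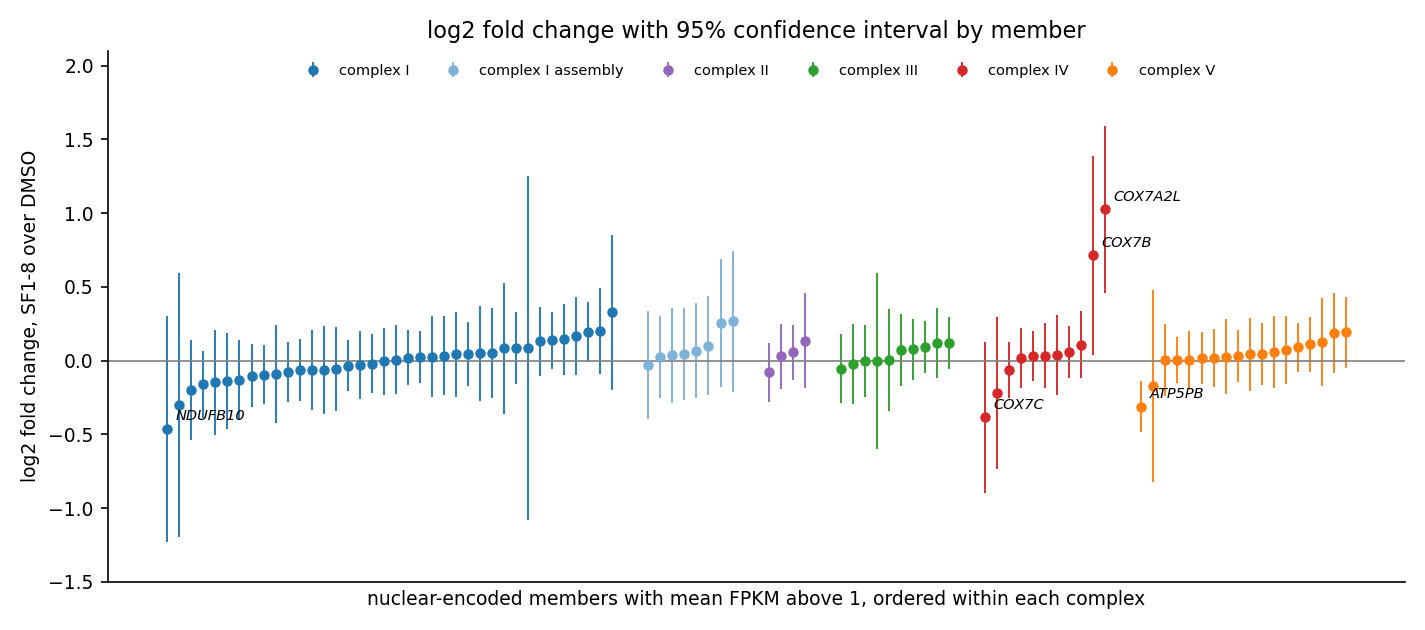
Log2 fold change of SF1-8 over DMSO (vertical axis) from edgeR for the 89 nuclear-encoded members with a mean FPKM above 1, ordered by value within each complex, with 95% confidence intervals as bars. Most intervals cross 0, and COX7A2L, at 1.02, and COX7B, at 0.71, stand above the other members of complex IV.

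Complex I, which oxidises NADH, was represented by 39 tested entries with a median log2 fold change of 0.00, of which 20 were above 0 and 19 below. Its most abundant members were NDUFA1, an accessory subunit, at 107.8 and 109.0 FPKM with DMSO and 112.0 and 123.1 with SF1-8, and NDUFB7. NDUFB7, another accessory subunit, stood at 63.0 and 61.7 with DMSO and 62.9 and 59.8 with SF1-8. The groups overlapped for NDUFB7 and not for NDUFA1, whose log2 fold change was 0.14 ± 0.09 (SE). NDUFV1, the flavoprotein that binds NADH, had 17.6 and 18.1 FPKM with DMSO and 20.4 and 19.8 with SF1-8. Its 2 SF1-8 libraries were both higher, and its log2 fold change of 0.20 ± 0.08 (SE) had an unadjusted p of 0.0554 and an adjusted p of 0.970 in edgeR. NDUFV1 was named after its values were seen, and its entry also names AP003385. NDUFA4 had 26.1 and 24.2 FPKM with DMSO and 25.5 and 24.5 with SF1-8, and NDUFA4L2, its paralog known to be induced by low oxygen, had 0.183 and 0.237 with DMSO and 0.311 and 0.218 with SF1-8. The groups overlapped for both. The 8 NDUFAF assembly factors had log2 fold changes from -0.03 to 0.27, and none passed an unadjusted p of 0.05.

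Complex II, the succinate dehydrogenase of the citric acid cycle, is built from nuclear genes alone. All 4 entries were within 0.14 log2 units of control, but those of SDHA and SDHD also name neighbouring genes, such as PDCD6 and BCO2, and do not measure the subunit alone. SDHC, a membrane anchor, had 34.8 and 33.5 FPKM with DMSO and 30.9 and 32.6 with SF1-8, so both SF1-8 libraries were lower, with a log2 fold change of -0.08 ± 0.08 (SE). SDHB had 33.4 and 30.1 FPKM with DMSO and 31.7 and 33.0 with SF1-8, and the groups overlapped.

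Complex III, which passes electrons to cytochrome c, had 10 tested members with log2 fold changes from -0.05 to 0.12. UQCRH, the hinge subunit, was its most abundant member at 150.2 and 138.3 FPKM with DMSO and 136.0 and 161.0 with SF1-8. CYC1, cytochrome c1, followed with 49.9 and 56.4 with DMSO and 52.3 and 50.6 with SF1-8. The groups overlapped for both. UQCRHL is a near copy of UQCRH, and how the counting split reads between them is not stated, so their values are uncertain.

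Complex IV, cytochrome c oxidase, held the widest differences of the nuclear members. COX7A2L, which is known to join complex III and complex IV into supercomplexes, had 3.26 and 3.21 FPKM with DMSO and 5.04 and 7.91 with SF1-8. The groups did not overlap, and the 2 SF1-8 libraries differed from each other by 1.57-fold. Its log2 fold change was 1.02 ± 0.22 (SE; 95% confidence interval 0.46 to 1.59), with an unadjusted p of 0.00533 and an adjusted p of 0.882 in edgeR. DESeq2 gave an adjusted p of 0.00751 for nearly the same fold. Without SF1-8 2 the log2 fold change was 0.68. The entry spans chr2:42333546-42425088 on the minus strand of hg38, the same span as the gene in GENCODE 29, which lists 4 coding transcripts there. The RefSeq promoter searched, chr2:42361168-42361467, lies inside that span near the start of other transcripts of the gene, and it held none of the 3 motifs. The start at the end of the span was not searched.

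COX7B, a small subunit of complex IV, had 9.91 and 11.0 FPKM with DMSO and 21.2 and 12.5 with SF1-8. Only SF1-8 1 stood well above control. The log2 fold change of 0.71 ± 0.27 (SE; unadjusted p = 0.0421, adjusted p = 0.970 in edgeR) was 0.28 without that library. The entry spans X:77899440-77905461 on the plus strand and stops before the end of the gene in GENCODE 29, at 77907373. COX7C, another small subunit, whose entry also names SNORD138, had 63.5 and 58.4 FPKM with DMSO and 36.2 and 55.5 with SF1-8. Both SF1-8 libraries were lower, but SF1-8 1 set the size, and the log2 fold change of -0.38 ± 0.20 (SE; unadjusted p = 0.113, adjusted p = 0.970 in edgeR) was -0.11 without it. COX5B, the most abundant member of complex IV, had 147.9 and 143.8 FPKM with DMSO and 142.7 and 165.7 with SF1-8, and the groups overlapped.

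**Figure D2:**
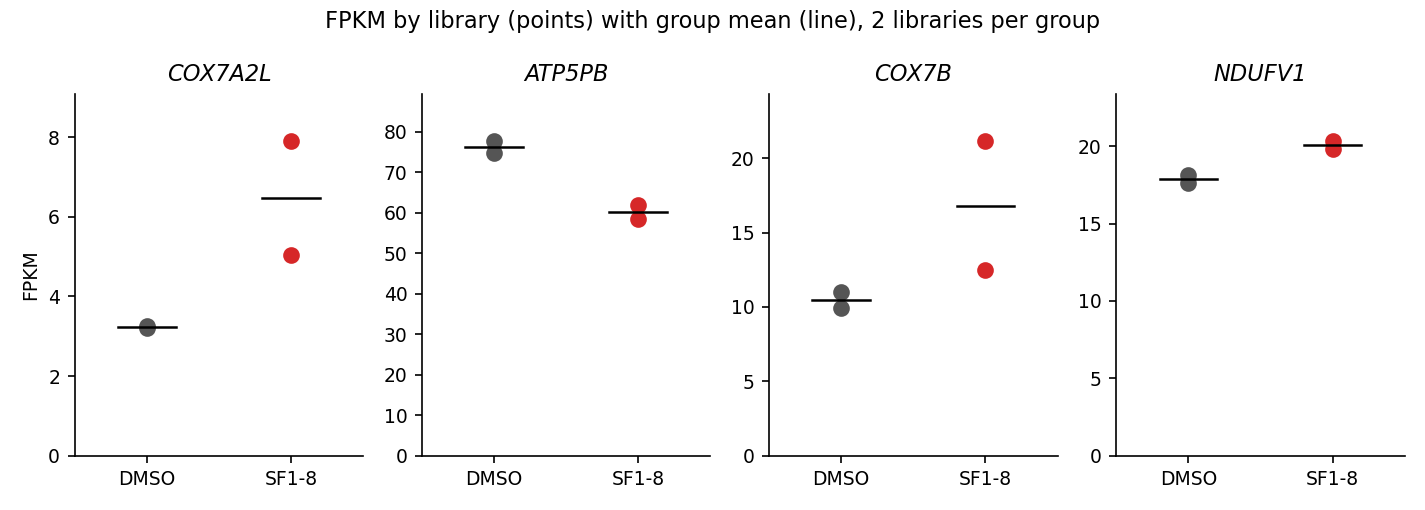
FPKM of COX7A2L, ATP5PB, COX7B and NDUFV1 in each library (points; vertical axis from 0) with the mean of the 2 libraries per group (lines). COX7A2L, ATP5PB and COX7B were chosen for an unadjusted p under 0.05 in edgeR, and NDUFV1 after its values were seen. This choice favours groups that do not overlap, as in all 4 panels, so the lack of overlap is not a result. The SF1-8 points are far apart for COX7A2L (5.04 and 7.91) and COX7B (21.2 and 12.5).

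Several subunits of complex IV have a paralog that is known from heart, muscle, lung or testis. Here the entry of the broadly expressed form had the higher level in every library. The entries of COX6A1, COX6B2 and COX8A also name other genes (GATC, FAM71E2 and OTUB1 among them), so their values are not those of the subunit alone. COX4I1 had 25.8 and 26.1 FPKM with DMSO and 24.6 and 27.6 with SF1-8, and COX4I2 was listed at 0. COX6A1 had 31.0 and 28.9 with DMSO and 29.4 and 30.7 with SF1-8, and COX6A2 was listed at 0. COX7A2 had 16.5 and 15.01 with DMSO and 14.8 and 16.9 with SF1-8, and COX7A1, the muscle form, had 0.221 and 0.396 with DMSO and 0.379 and 0.303 with SF1-8. The groups overlapped for COX4I1, COX6A1, COX7A2 and COX7A1.

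COX6B1 had 67.1 and 41.8 FPKM with DMSO and 44.7 and 46.4 with SF1-8, where DMSO 1 alone was high. COX6B2, its testis form, had 0.222 and 0.178 with DMSO and 0.0862 and 0.156 with SF1-8, and its log2 fold change was -0.70 ± 0.37 (SE; adjusted p = 0.970 in edgeR). That value was -0.36 without SF1-8 1 and -1.12 without SF1-8 2. COX7B2, the testis form of COX7B, was counted 4 and 0 times in the controls and 12 and 19 times after SF1-8, in estimated counts that are too few for a fold. COX8A had 21.1 and 21.0 FPKM with DMSO and 21.8 and 21.2 with SF1-8, with a log2 fold change of 0.06 ± 0.07 (SE), and COX8C was at 0 in 2 of the 4 libraries and under 0.08 FPKM in the others.

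**Figure D3:**
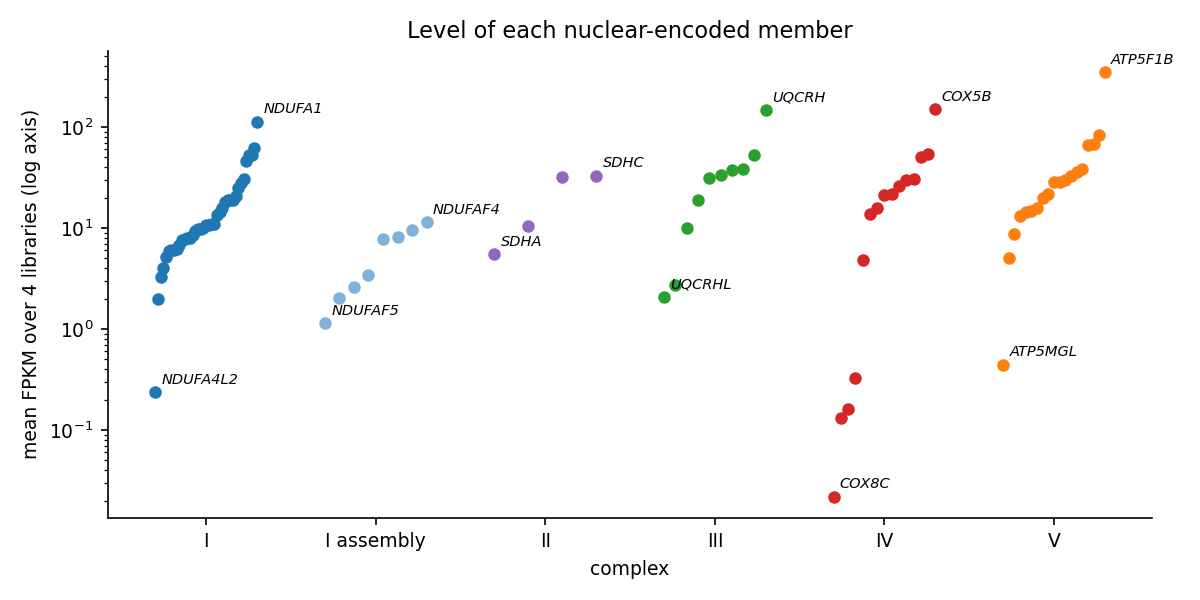
Mean FPKM over the 4 libraries (logarithmic axis) of each nuclear-encoded member, by complex, with the highest and lowest member of each complex named. COX4I2, COX6A2 and the 13 mitochondrially encoded members are listed at 0 and not drawn. Levels run from 0.0219 for COX8C to 350.1 for ATP5F1B, and the tissue paralogs form the low group of complex IV.

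Complex V, the ATP synthase, had 19 tested entries, 17 above 0 and 2 below, with a median log2 fold change of 0.04. Over all entries tested, 48.4% were above 0. Of those above 0 in complex V, ATP5F1E, ATP5IF1, ATP5MC3, ATP5ME, ATP5PD and ATP5PF had a lower mean FPKM with SF1-8. Signs this near 0 depend on the scaling, and with total counts 42.6% of all nuclear members were above 0. ATP5PB, subunit b of the peripheral stalk that holds the catalytic head still, had 77.8 and 74.8 FPKM with DMSO and 62.0 and 58.5 with SF1-8. Both SF1-8 libraries were lower and the replicates lay close together. Its log2 fold change was -0.31 ± 0.07 (SE; 95% confidence interval -0.49 to -0.14), with an unadjusted p of 0.0054 and an adjusted p of 0.882 in edgeR, and it ranged from -0.36 to -0.26 as each library was left out. The entry spans chr1:111448864-111462773 on the plus strand and overlaps WDR77 on the other strand. Whether counting used strand is not stated, so reads of the 2 genes may not be separated. The YY1 match of its promoter, shown above, starts at position -2 from the start that RefSeq gives, which lies inside the span of the entry.

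The other members of the stalk had values near control. ATP5PF had 36.4 and 35.1 FPKM with DMSO and 36.2 and 34.8 with SF1-8, ATP5PD, subunit d, had a log2 fold change of 0.03 ± 0.10 (SE), and ATP5PO, which joins the stalk to the head, had 0.04 ± 0.08 (SE). The entry of ATP5PO also names DONSON and AP000311, so its value is not that of the subunit alone. None of these 3 passed an unadjusted p of 0.05, and their difference from ATP5PB was not tested. ATP5F1B, the catalytic beta subunit, was the most abundant of all members at 367.1 and 313.8 FPKM with DMSO and 350.7 and 368.8 with SF1-8, and the groups overlapped. ATP5MD, a small membrane subunit, had 83.4 and 80.6 with DMSO and 77.7 and 90.1 with SF1-8, and overlapped as well. Its entry also names MIR1307.

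The c subunit, which forms the rotating ring, is made from 3 genes that give the same mature protein. ATP5MC3 was the highest at 39.4 and 37.2 FPKM with DMSO and 37.2 and 38.2 with SF1-8, ATP5MC2 had 26.0 and 28.4 with DMSO and 32.1 and 28.7 with SF1-8, and ATP5MC1 had 15.9 and 15.3 with DMSO and 15.4 and 16.8 with SF1-8. The order of the 3 was the same in each library. The entry of ATP5MC2 also names AC073594, and that of ATP5MC3 a Y_RNA. ATP5MC2 alone had both SF1-8 libraries above control, by a log2 fold change of 0.19 ± 0.11 (SE; adjusted p = 0.970 in edgeR).

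For 76 of the 94 tested members, the larger of the 2 replicate ratios in FPKM exceeded the fitted fold between the groups. The larger of 2 ratios of single libraries will often exceed a fold between group averages even without an effect. The share over all entries was not computed, so no conclusion about the members is drawn from this count. Members with a wide gap between replicates were listed after the values were seen. Of the 89 members with a mean FPKM above 1, 4 differed by over 1.5-fold between DMSO libraries and 5 between SF1-8 libraries. Of all 14086 entries with a mean FPKM above 1, 15.8% and 12.9% did so. Those entries were not matched to the members in level. NDUFA5, a subunit of complex I, was the only one of the 89 to do so in both groups. It had 10.6 and 5.15 FPKM with DMSO and 11.0 and 5.14 with SF1-8. In each group the library numbered 1 was the higher, and the groups overlapped. NDUFB10 was high in DMSO 1 alone, at 24.6 against 12.5, 13.6 and 12.6 in DMSO 2, SF1-8 1 and SF1-8 2. NDUFB9 was also highest in DMSO 1, at 14.8 against 6.80, 7.44 and 9.61. ATP5F1D, the delta subunit of the ATP synthase, was low in SF1-8 1 alone, at 14.99 against 25.5, 21.1 and 25.5 in DMSO 1, DMSO 2 and SF1-8 2. None of these 4 passed an unadjusted p of 0.05. DMSO 1, in which NDUFB10, NDUFB9 and COX6B1 stood highest, was also the library with the lowest total count.

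**Figure D4:**
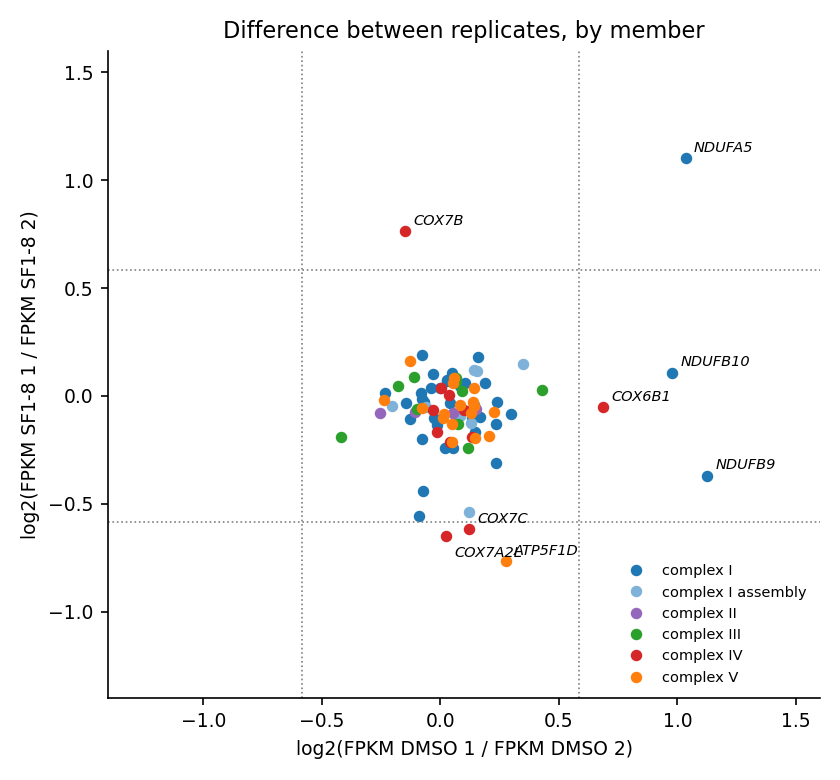
Log2 ratio of FPKM between the 2 DMSO libraries (horizontal axis) and between the 2 SF1-8 libraries (vertical axis) for the 89 members with a mean FPKM above 1. Dotted lines mark a 1.5-fold difference, and the 8 members beyond them in either group are named, with NDUFA5 alone beyond both.

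Other genes of the pathway were read from lists of assembly factors, electron carriers, regulators and mitochondrial RNA genes, 121 symbols in all. Of their 96 tested entries, none passed an adjusted p of 0.05 in edgeR, and 2 were higher and 1 lower at an unadjusted p under 0.05, beside the same background shares as above. TMEM70, an assembly factor of the ATP synthase, had 6.75 and 6.38 FPKM with DMSO and 7.96 and 9.94 with SF1-8, a log2 fold change of 0.47 ± 0.13 (SE), but its entry also names other genes. SDHAF3, which helps to mature SDHB, had 19.2 and 20.7 with DMSO and 22.6 and 25.4 with SF1-8, a log2 fold change of 0.29 ± 0.11 (SE). ACAD9, an assembly factor of complex I, had 3.55 and 3.37 with DMSO and 2.87 and 2.70 with SF1-8, a log2 fold change of -0.29 ± 0.09 (SE). Their adjusted p was 0.970 each.

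The list of nuclear regulators held the factors whose sites were searched in the promoters and others such as ESRRA and PPRC1. Of its 8 tested members, 7 were above 0 and 1 below, beside 48.4% above 0 over all entries, with log2 fold changes from -0.03 to 0.12. NRF1 had 5.01 and 4.99 FPKM with DMSO and 4.85 and 4.77 with SF1-8, so that both SF1-8 libraries were lower. GABPA, the DNA-binding subunit of GABP, had 7.27 and 6.52 with DMSO and 6.79 and 7.15 with SF1-8. The groups overlapped for GABPA. YY1 had 7.43 and 11.5 FPKM with DMSO and 11.0 and 8.68 with SF1-8. Its groups overlapped, its replicates lay far apart, and the 95% confidence interval of its log2 fold change ran from -0.58 to 0.72. TFAM, which packages mitochondrial DNA and takes part in its transcription, was named after its values were seen. It had 14.9 and 15.1 FPKM with DMSO and 16.3 and 37.2 with SF1-8, where SF1-8 2 alone stood far above the rest, and its log2 fold change of 0.86 ± 0.37 (SE) had an unadjusted p of 0.0676 and an adjusted p of 0.970 in edgeR.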

How the data were processed

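RNA-seq libraries of 4 samples were grouped by their labels. Each gene of the deposited table has an FPKM, which the authors scaled for length and depth, and a count for every library. A count of 0 goes with an FPKM of 0.0001. The deposited counts hold no fractions, and 4 occurs most often above 0 in all 4 libraries, so they were taken as estimated counts rather than single reads, and no counting error is given. The submitters' processing notes name cutadapt, FastQC, Bowtie2, HISAT2, StringTie and hg38, with no roles. The strand setting is not given in the sources used here. The identifiers are those of a merged assembly with Ensembl genes added.

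Counts were tested with edgeR 4.0.16 (quasi-likelihood, TMM, filterByExpr, two-sided) in R 4.3.3, on 26167 entries. Entries without a gene name (2095, with 0.372% of the counts) were left out. The TMM factors ran from 0.973 to 1.05. DESeq2 1.42.0, without independent filtering or Cook's cutoff, and limma 3.58.1 were alternatives, with leave-one-out fits and a replicate block. With 1 library left in a group, that library was assumed to vary like the others. The steps were tested on simulated data with changes far larger than those of most members. That test does not show how well small changes are found. The planned medians and ratios of mitochondrial members could not be computed, because all values are 0.

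Members and gene lists were chosen with earlier results of these data known. Genes were named by a rule of p-value, size, level and paralogy. NDUFV1, NDUFA5, NDUFB9, ATP5F1D, TFAM, the stalk subunits, the regulators and the nuclear copies were added after values were seen. A test used by the authors for these data is not given in the sources used here. Promoters come from RefSeq (GRCh38.p14) and gene spans from GENCODE 29, whose coordinates equal those of 79.2% of the 28207 Ensembl entries found in it.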

Additional observations from a re-analysis of the deposited data

How the results depend on the processing

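No member passed an adjusted p of 0.05 in edgeR or limma under any setting run, and DESeq2 called 1, COX7A2L (log2 fold change 1.03, adjusted p = 0.00751; over its alternatives the adjusted p ran from 0.00751 to 0.977). Leaving out each library in turn gave 0 members past the adjusted threshold and from 4 to 9 past an unadjusted p of 0.05, with 9 without DMSO 2 and 5 without SF1-8 2. The replicate block gave 0 and 2 such members and a median log2 fold change of 0.03. Same-numbered libraries deviated with a correlation of 0.02, so the numbers are not known to pair the samples, and the block changed no adjusted call among the members.

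The median log2 fold change of the nuclear members, 0.03, was -0.014 with total counts only, 0.0040 with limma on log2(FPKM + 1), 0.0041 with a pseudocount of 0.1, 0.0053 without a filter and -0.015 after quantile normalization, and between 0.0055 and 0.059 as libraries were left out. The median over all entries was -0.011 here, -0.058 with total counts and 0.0062 after quantile normalization, so total counts moved members and other entries by a like amount. For the other settings the cause was not tested.

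Of 496 log2 fold changes recomputed for 34 named genes, 448 kept their direction and side of the threshold, 47 changed sign and 1 passed the adjusted threshold. A shift in scaling common to all entries is enough to turn a value this near 0, so the sign changes under total counts or upper-quartile factors say nothing about the single gene. NDUFB7 was -0.011 with upper-quartile factors, -0.042 with total counts, -0.0088 with counts divided by 4, -0.023 with limma at each pseudocount and without a filter (-0.0225 and -0.0228), and -0.060 after quantile normalization. ATP5MC3 was -0.0097, -0.041, -0.0069, -0.021 (-0.0211 and -0.0216) and -0.050 in the same order. NDUFA4 was -0.028 with total counts, -0.0073 and -0.0075 with limma, and -0.017 after quantile normalization. With total counts, COX4I1 was -0.011, COX6A1 -0.015 and COX7A2 -0.0065. After quantile normalization, COX4I1 was -0.025, COX6A1 -0.021, COX7A2 -0.0051, UQCRH -0.035, ATP5MD -0.023 and ATP5F1B -0.072.

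As libraries were left out, the log2 fold change ran from -0.836 to 0.0533 for NDUFB10, from -0.034 to 0.0508 for NDUFB7, from -0.15 to 0.12 for CYC1, from -0.0455 to 0.185 for UQCRH, from -0.038 to 0.161 for ATP5MD, from -0.04 to 0.11 for COX4I1, from -0.49 to 0.11 for COX6B1, from -0.046 to 0.130 for COX7A2 and from -0.20 to 0.48 for COX7A1. It ran from -0.0113 to 0.0596 for NDUFA4, from -0.0034 to 0.0236 for ATP5MC3, from -0.57 to 0.64 for NDUFA5, from -0.73 to 0.31 for NDUFB9 and from -0.59 to 0.16 for ATP5F1D. The alternatives planned for the mitochondrial members were not run, because every value is 0.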
